A study of Macrobrachium rosenbergii with 20 samples.

Results

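The gonads and the hepatopancreas of Macrobrachium rosenbergii, the giant freshwater prawn, were compared over both sexes. All animals were adults of the strain labelled CMr1. All 20 libraries of the series were used: 10 from gonads (5 ovary and 5 testis) and 10 from hepatopancreas (5 female and 5 male). Libraries were assigned by the tissue and sex in their labels, and sex was an additive term in the fit. The labels give no treatment. Each sample carries a weight gain between 1.48 and 7.52, whose unit is not stated. Weight gain averaged 3.60 ± 1.92 in the gonad samples and 4.28 ± 2.09 in the hepatopancreas samples (SD, n = 10). It differed among the 5 replicates of every group. It also differed between gonad and hepatopancreas samples of the same sex and number, if only slightly for males 1 and 5. The labels do not say whether the 5 replicates of a group came from separate animals. The p-values therefore measure only the spread between these samples, which may be technical.

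The hepatopancreas is the digestive gland of decapod crustaceans. It makes and secretes digestive enzymes, absorbs nutrients, and stores lipid and glycogen, and in female prawns it is also known as a site where the yolk precursor vitellogenin is made. The ovary holds oocytes with their follicle cells, and the testis holds germ cells that become sperm. Both gonads therefore combine germ cells with somatic cells, whereas the hepatopancreas is built from epithelial tubules.

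The data were estimated counts for 30260 transcripts, of which 10464 had a count in at least 1 library after rounding. A transcript was tested where it had 10 or more counts in at least 5 of the 20 libraries, which left 8043. The transcript identifiers carry a length, a quality class and the word Female or Male, but they are not paired with gene names, so neither the tissue labels nor any gene group could be checked against known marker genes. Which identifiers are versions of 1 gene is likewise not given, and counts can be split among such versions. Library totals ran from 8670640 to 13232366 in ovary, 12822717 to 17102848 in testis, 9025144 to 15592052 in female hepatopancreas and 13910322 to 18355650 in male hepatopancreas. None of the 40 pairs of libraries within groups agreed within sampling noise, and pairs between groups were not checked.

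Among these libraries, 3 stood apart from their groups. CPM are counts per 1000000 counts of the library, after its total was multiplied by its TMM factor, a scaling described below. Testis 5 had a median correlation of log2 CPM of 0.73 with the other testes and 0.63 with the ovaries. The median over all pairs of an ovary and a testis was 0.52. Male hepatopancreas 5 had a median correlation of 0.91 with the female hepatopancreas libraries and of 0.88 with the other male ones. Female hepatopancreas 4 had 2.47% of its counts on transcripts that were not tested, against 0.010% to 0.15% in the other hepatopancreas libraries. The tissue comparison called 4220 transcripts without the 3 libraries, and 4472 with them.

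Most of the tested transcripts differed between the gonads and the hepatopancreas. In edgeR's quasi-likelihood test, 4472 of 8043 transcripts (55.6%) had a Benjamini-Hochberg adjusted p under 0.05, and such transcripts are said to be called. Of these, 2334 (29.0% of the tested) were higher in the gonads and 2138 (26.6%) were higher in the hepatopancreas. The median log2 change of all tested transcripts, gonads minus hepatopancreas, was 0.02. In these whole-organ libraries, fewer cells of a type and less RNA per cell cannot be told apart.

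The near-even split of the 2 directions depended on the scaling of the libraries. The TMM factors, which scale each library to a trimmed mean of its transcripts, were 2.37 to 2.62 in ovary, 0.60 to 1.57 in testis and 0.46 to 0.99 in hepatopancreas. With these factors 52.2% of the called transcripts were higher in the gonads. With library totals alone, 4429 of 5622 called transcripts (78.8%) were higher in the gonads and 1193 were higher in the hepatopancreas, and the median log2 change of all tested transcripts moved to 1.34. All 2334 transcripts that were higher in the gonads, and 1193 of the 2138 that were higher in the hepatopancreas, were called in the same direction under both scalings. A further 108 were called in opposite directions. Unless stated otherwise, changes below are relative to the TMM scale.

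**Figure D1:**
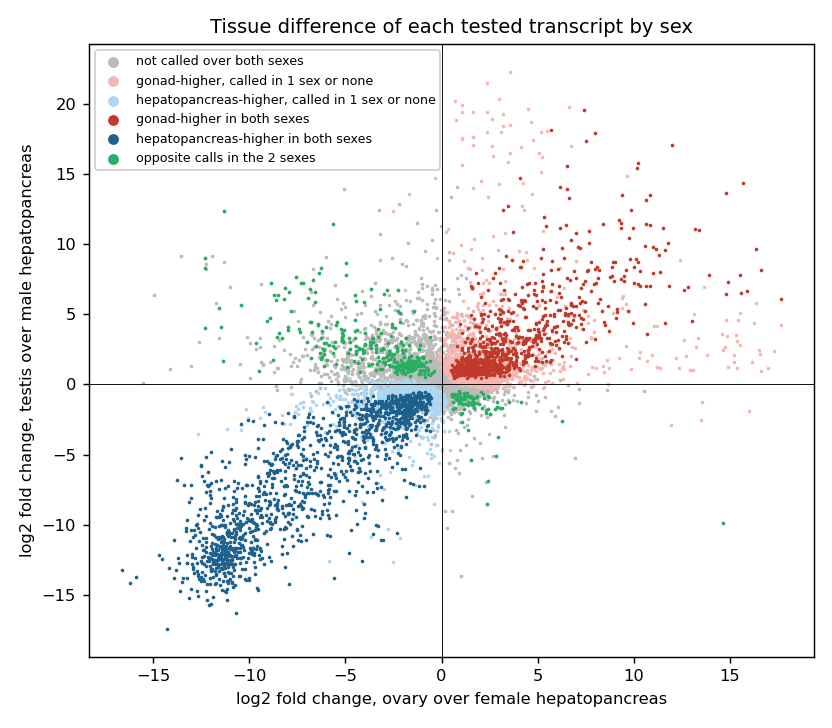
Log2 change between gonad and hepatopancreas within females (x axis, ovary minus female hepatopancreas) and within males (y axis, testis minus male hepatopancreas) for the tested transcripts, 1 point per transcript, coloured by its calls; fitted values of transcripts without counts in a group are not bounds. Transcripts higher in the hepatopancreas reach a dense group far below 0 on both axes, where their 1322 members called in both sexes have a median log2 change of -6.69, against 2.49 for the 872 members on the gonad side.

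Transcripts of the hepatopancreas stood further from the gonads than the reverse. The median log2 change was -3.02 for transcripts higher in the hepatopancreas and 1.74 for those higher in the gonads. A change of 32-fold or more was reached by 806 of the 2138 hepatopancreas-higher transcripts (37.7%) and by 399 of the 2334 gonad-higher ones (17.1%), against 1213 of all 8043 (15.1%). At 1024-fold or more there were 388 on the hepatopancreas side and 176 on the gonad side. In these size counts, a transcript without counts in a group was set at its lower bound, taken against 3 counts over that group. For these same 2 sets, the order of the medians depended on the scaling of the sizes. With sizes by library totals, they had medians of -1.71 and 3.13. Transcripts that were themselves called by library totals had medians of -6.10 (1193 higher in the hepatopancreas) and 2.28 (4429 higher in the gonads). Of these transcripts, 696 on the hepatopancreas side and 597 on the gonad side reached 32-fold. At 1024-fold the totals gave 255 against 205. Where the test itself asked for more than a 2-fold change, 2745 transcripts were called, 1232 of them higher in the gonads and 1513 higher in the hepatopancreas.

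The directions were also counted by abundance, in classes of the mean CPM over the same 20 libraries, which a high level in either organ itself raises. Of the 173 transcripts with a mean of 1000 CPM or more, 128 were higher in the hepatopancreas and 36 in the gonads. Between 100 and 1000 CPM the counts were 546 and 207 of 1100. Between 1 and 10 CPM they were 431 and 821 of 2748, so that the larger share lay with the gonads. With calls by library totals, the classes were kept on the TMM scale, so that this repeat changed only the calls. The most abundant class then had 106 against 40. The class from 100 to 1000 CPM changed sides, with 400 against 457. Per kilobase of transcript, the median gonad-higher transcript had 15.4 CPM in ovary, 7.06 in testis, 2.64 in female and 2.50 in male hepatopancreas. The median hepatopancreas-higher transcript had 1.21, 2.75, 32.2 and 38.3 CPM per kilobase in the same order.

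In TMM-scaled CPM, the 10 libraries of 1 tissue all lay above the 10 of the other for 1087 transcripts (13.5% of the tested). All 1087 were called. How many of them stay without overlap by library totals was not counted. On the TMM scale, the hepatopancreas was the higher tissue for 882 of the 1087 and the gonads for 205. The median log2 change was -8.47 in the first set and 2.61 in the second. The 882 transcripts held 55.4% ± 8.89 of the counts in female and 51.0% ± 5.80 in male hepatopancreas, against 7.26% ± 2.08 in ovary and 4.08% ± 1.38 in testis (SD, n = 5). The 205 held 3.99% ± 0.18 of the counts in ovary and 1.67% ± 0.70 in testis, against 0.18% ± 0.05 and 0.13% ± 0.03 in female and male hepatopancreas. By library totals, all 205 were called higher in the gonads, while 799 of the 882 were called higher in the hepatopancreas and 4 in the opposite direction.

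Among the hepatopancreas-higher transcripts without overlap, the one whose smaller within-sex change was largest was transcript_HQ_Female_transcript19344/f3p0/967, of 967 bases. It stood at 16481, 5941, 6882, 2691 and 6637 CPM in female hepatopancreas 1 to 5. In male hepatopancreas 1 to 5 it stood at 12982, 6933, 17275, 2880 and 4933 CPM. Both sexes were in the same range, and the library numbered 4 was the lowest of each. In the gonads it had 88 counts in all, in ovary 4 (1.76 CPM), ovary 5 (1.04 CPM) and testis 2 (1.62 CPM), and none in the other 7 libraries. The ratio of summed counts was 19348-fold in favour of the hepatopancreas (95% Poisson interval 15704 to 24124, counting error only). The fitted log2 change was -14.23 ± 1.71 (SE), with an adjusted p of 1.0e-06 by edgeR.

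The hepatopancreas transcript of highest mean level among those without overlap, transcript_HQ_Female_transcript16596/f2p0/1042 (1042 bases), was abundant in both organs. It measured 45814, 72255, 47395, 36772 and 36072 CPM in female and 25554, 29988, 35664, 25697 and 28136 CPM in male hepatopancreas. The ovaries had 16750, 9003, 15379, 5572 and 8656 CPM, and the testes 14894, 18940, 15186, 16826 and 17991 CPM. On the TMM scale all 10 gonad values lay under the lowest hepatopancreas value. By library totals the organs overlapped: ovary 1 had 525570 of 13232366 counts, and male hepatopancreas 1 had 214943 of 18355650. The log2 change of this transcript was -1.45 ± 0.49 (SE, edgeR adjusted p = 0.0167). Within females the log2 change was -1.97 (edgeR adjusted p = 0.0436), and within males it was -0.73 and not called (edgeR adjusted p = 0.363). The call over both sexes rested on the scaling: by library totals the log2 change was -0.09 with an adjusted p of 0.867. It was also lost with the replicate number as a block, where the adjusted p was 0.0574, and in the test against 2-fold, where it was 0.164.

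Of the 205 gonad-higher transcripts without overlap, the one whose smaller within-sex change was largest was transcript_HQ_Female_transcript754/f3p0/3059, of 3059 bases. Ovary 1 to 5 had 77.1, 128, 76.7, 94.8 and 30.5 CPM. Testis 1 to 5 had 0.67, 0.49, 107, 170 and 313 CPM, so that 2 testes were near 0 and 3 were at or above most of the ovaries. The hepatopancreas libraries had 2 counts in all, both in females. The ratio of summed counts was 5023-fold (95% interval 1390 to 41475). The fitted log2 change was 11.69 ± 1.22 (SE; edgeR adjusted p = 1.6e-07).

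The transcript of highest mean gonad level among those 205, transcript_HQ_Male_transcript729/f2p0/2665 (2668 bases), was in the main an ovary transcript. The ovaries had 2224, 3106, 1864, 2939 and 3012 CPM. The testes had 0.56, 0.41, 2.53, 4.48 and 6.57 CPM. Female hepatopancreas 5 had 1 count (0.12 CPM) and the other 9 hepatopancreas libraries had none. Within males the summed counts of the testes were therefore at least 52.0-fold above the male hepatopancreas, a bound against 3 counts over the 5 male hepatopancreas libraries. This bound does not hold for each testis. Of the 295 testis counts, 176 were in testis 5, while testis 1 and testis 2 had 5 each. The log2 change over both sexes was 15.93 ± 0.99 (SE; edgeR adjusted p = 2.2e-10). As with the preceding transcript, testis 1 and testis 2 were the lowest testes.

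**Figure D2:**
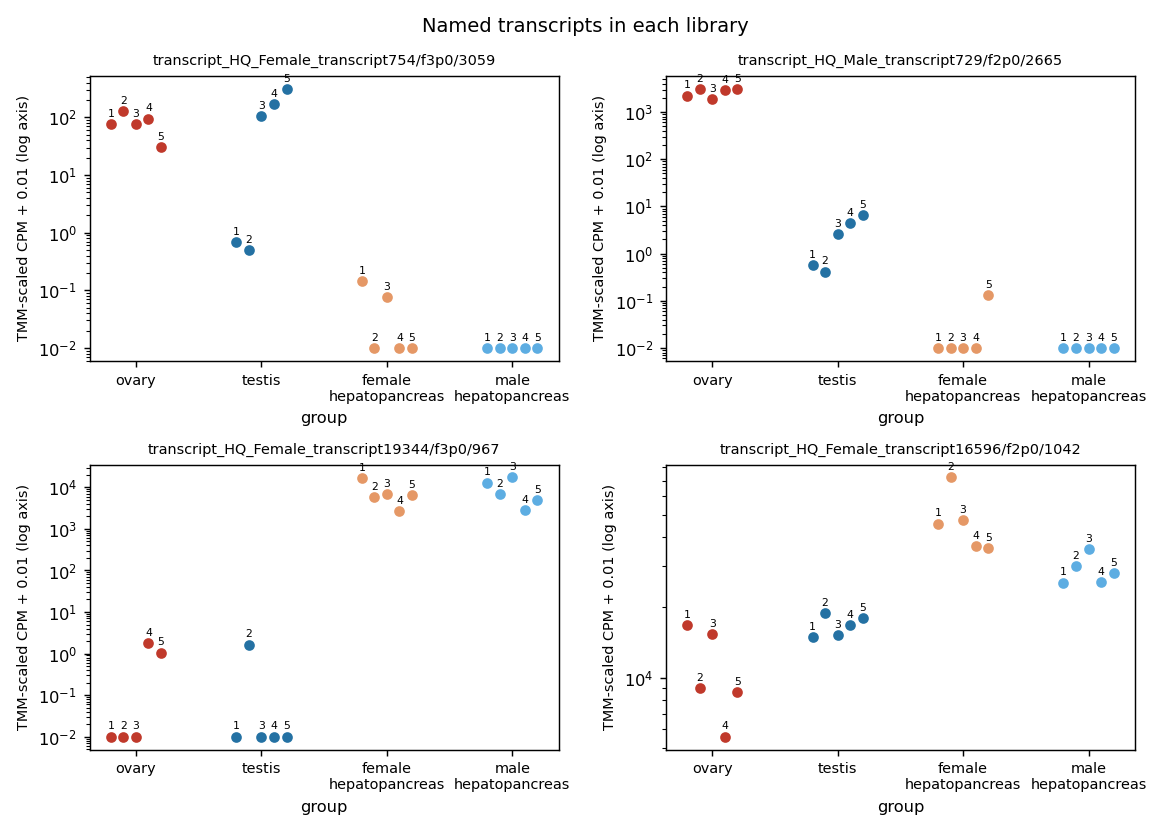
TMM-scaled CPM plus 0.01 (y axis, log scale) of the 4 transcripts named for the tissue difference in each of the 20 libraries, 1 point per library, grouped as ovary, testis, female hepatopancreas and male hepatopancreas. The hepatopancreas transcript of 967 bases lies between 2691 and 17275 CPM in all 10 hepatopancreas libraries and at or under 1.76 CPM in the gonads, whereas the gonad transcripts differ between ovaries and testes or among the testes.

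Within each sex, the tissue comparison called more transcripts in females than in males. Ovary against female hepatopancreas called 5067 of 8005 transcripts (63.3%), of which 2480 (31.0%) were higher in ovary and 2587 (32.3%) higher in hepatopancreas. Testis against male hepatopancreas called 3709 of 7996 (46.4%), of which 2006 (25.1%) were higher in testis and 1703 (21.3%) higher in hepatopancreas. By library totals both splits moved to the gonad side, with 4055 against 1291 in females and 3513 against 1155 in males. The median SD of log2 CPM within a group was 0.50 in ovary, 0.75 in testis, 0.71 in female and 0.52 in male hepatopancreas. The within-sex fits use the same libraries as the comparison over both sexes, and so do not repeat it independently.

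The hepatopancreas side was shared by the sexes to a larger extent than the gonad side. Higher in the hepatopancreas within both sexes were 1322 transcripts, which is 51.1% of the female list and 77.6% of the male list. Higher in the gonad within both sexes were 872 transcripts, which is 35.2% of the female list and 43.5% of the male list. The shares on the hepatopancreas side were also above those on the gonad side in every repeat without 1 library and by library totals, where they were 69.2% and 77.4% against 57.0% and 65.8%. The difference between the shares of the 2 directions was not tested. The number 872 depended on single libraries: it was 489, 480 and 491 without male hepatopancreas 1, 2 or 4, and 574 without testis 4. It was 567 without the 3 libraries that stood apart, and 2310 by library totals. Leaving out 1 library at a time kept the 1322 between 1255 and 1401.

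Among the 2334 gonad-higher transcripts over both sexes, 1082 were called within females alone, 333 within males alone and 47 within neither. Among the 2138 hepatopancreas-higher ones, 514 were called within females alone, 197 within males alone and 105 within neither. The median log2 change of the gonad-higher transcripts was 2.23 in females and 1.22 in males. For the hepatopancreas-higher ones it was -3.53 in females and -2.63 in males. For the sets called in both sexes these medians were 2.83 and 2.19 on the gonad side, and -6.70 and -6.14 on the hepatopancreas side.

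A test of the difference itself, the interaction of sex and tissue, called 3013 of 8043 transcripts (37.5%). It called 885 of the gonad-higher transcripts (37.9%) and 582 of the hepatopancreas-higher ones (27.2%). Among the 3571 transcripts with no call over both sexes, 1546 had a called interaction. Of the 3013, 453 were called in the same direction in both sexes and differed in size, 1429 were called in females alone, 591 in males alone, 421 in opposite directions and 119 in neither sex. Of the 421, 334 were lower in ovary and higher in testis than in the hepatopancreas of the same sex, and 87 were the reverse. The 334 fell to 210 with the replicate number as a block and to 113 by library totals. The 87 became 145 without testis 5 and 56 by library totals.

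The 334 transcripts held 4.43% ± 0.51 of the counts in ovary and 5.14% ± 1.98 in female hepatopancreas, against 11.1% ± 3.67 in testis and 1.89% ± 0.50 in male hepatopancreas (SD, n = 5). Testis 5 had the highest share of the testes, at 17.2%. The leading transcript of this pattern by the naming rule, transcript_HQ_Female_transcript8354/f20p0/1558, rested on single libraries. It stood at 619 CPM in female hepatopancreas 4 and at 0 in the other 4 female hepatopancreas libraries. Testis 5 had 254 CPM and the other testes between 2.86 and 6.73 CPM. Its female log2 change of -11.31 turned to 2.88, with an adjusted p of 0.361, without female hepatopancreas 4.

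The reverse pattern was led by transcript_HQ_Male_transcript27571/f2p0/948. Ovary 1 to 5 had 213, 122, 206, 161 and 156 CPM, and the 5 female hepatopancreas libraries had no count. Male hepatopancreas 1 to 5 had 3.57, 8.34, 16.6, 20.6 and 0 CPM, and the 5 testes had no count. The ovary was at least 2922-fold above the female hepatopancreas, and the male hepatopancreas at least 242-fold above the testis, each against 3 counts over the group without counts.

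The counts of each library were divided unevenly between the called sets. Gonad-higher transcripts took 51.6% ± 4.40 of the counts in ovary and 54.2% ± 12.3 in testis, against 2.42% ± 0.73 in female and 1.47% ± 0.35 in male hepatopancreas (SD, n = 5). Hepatopancreas-higher transcripts took 77.7% ± 8.48 in female and 90.4% ± 2.33 in male hepatopancreas, against 16.9% ± 3.76 in ovary and 10.8% ± 2.95 in testis. These shares describe sets chosen on the same libraries, and were not tested.

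Ovary and testis differed in the sets that made up their similar shares. The sets were chosen by calls on these same libraries, so part of this contrast follows from the choice. The transcripts called within females alone held 33.7% ± 4.45 of the counts in ovary and 1.69% ± 0.91 in testis. Those called within males alone held 2.38% ± 0.19 in ovary and 37.7% ± 13.5 in testis. The set called in both sexes held 14.9% ± 0.65 in ovary and 14.4% ± 1.85 in testis. In the hepatopancreas, by contrast, the set called in both sexes held most of the counts: 63.2% ± 9.30 in females and 79.7% ± 5.16 in males.

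The testes differed among themselves in the male set. Its share was 54.5% in testis 1, 43.3% in testis 2, 38.9% in testis 3, 34.0% in testis 4 and 17.8% in testis 5. The share of transcripts without a call was 16.7% in testis 1 and 45.6% in testis 5. Testis 1 and testis 5 also had the lowest and the highest TMM factor of the testes, 0.60 and 1.57. The bearing of this composition on the calls within males was not tested.

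**Figure D3:**
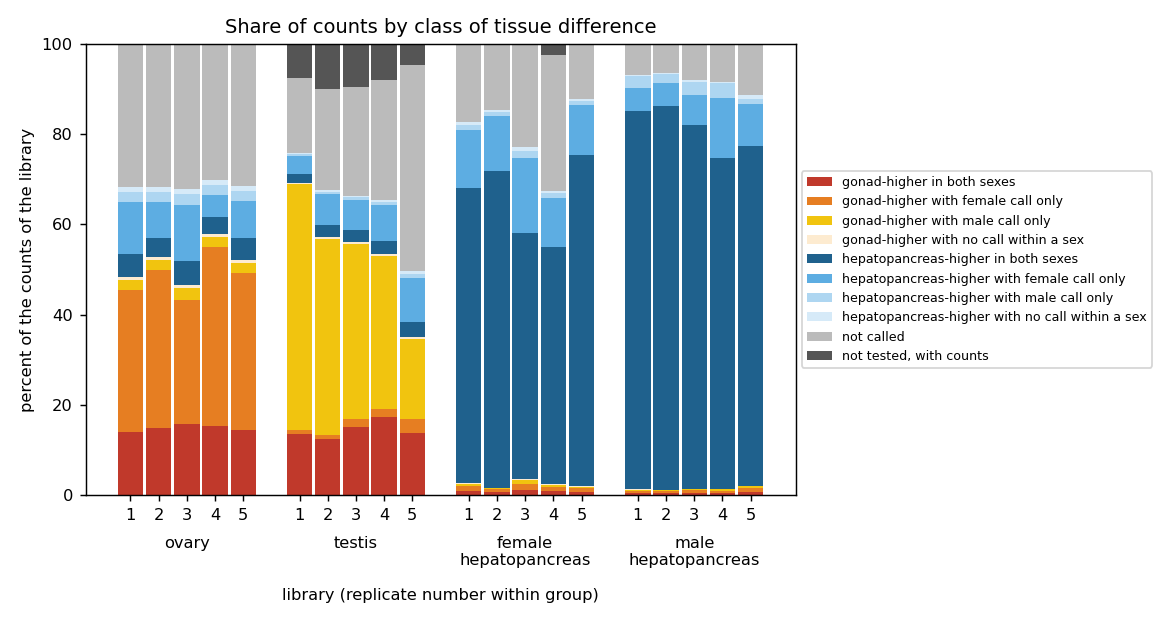
Share of the counts of each library (y axis, percent) held by transcripts grouped by their tissue call over both sexes and within each sex, 1 stacked bar per library. The hepatopancreas-higher set called in both sexes fills 52.7% to 85.0% of each hepatopancreas library. The gonad-higher set called in both sexes fills 12.4% to 17.2% of each gonad library, and the sets called in 1 sex differ between ovary and testis.

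Some transcripts were detected in 1 organ only. Of the tested transcripts, 182 had no count in any hepatopancreas library, and 56 had none in any gonad library. The 182 took 5.15% ± 0.78 of the counts in ovary and 23.7% ± 8.15 in testis (SD, n = 5). Testis 1 had the highest share, at 34.0%, and testis 5 the lowest, at 12.8%. The 56 took 0.14% ± 0.06 of the counts in female and 0.08% ± 0.01 in male hepatopancreas. The median length was 1302 bases for the 182 and 1178 bases for the 56, against 1597 bases for all tested transcripts. The abundant 967-base hepatopancreas transcript described above was not among the 56, since it had 88 counts in gonads.

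The filter of 5 libraries shaped both ends of the comparison. Of the 8043 tested transcripts, 7290 reached 10 counts in libraries of both organs, 496 in gonads alone and 257 in hepatopancreas alone. The last 2 sets passed only through the organ where they were high, and 455 of the 496 and all 257 were called in that direction. A further 2421 transcripts had counts but were not tested, and took 7.94% ± 2.11 of the counts in testis and 0.13% ± 0.06 in ovary. Of these, 111 had 10 or more counts in 4 testes and in no other library. They held 7.47%, 9.87%, 9.56%, 7.84% and 0.038% of the counts in testis 1 to 5, and 100 of them missed the filter through testis 5. With a filter of 4 libraries, 4591 transcripts were called.

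The most abundant transcripts were shared widely within the hepatopancreas and little between the gonads. Of the 100 transcripts with the highest counts in a library, not scaled by length, a median of 54 were common to a female and a male hepatopancreas library. A median of 17 were common to an ovary and a testis, as many as to an ovary and a female hepatopancreas library. Within groups the medians were 82.5 for ovaries, 76.5 for testes, 66 for female and 74.5 for male hepatopancreas. Among the 100, 21 were common to all 10 hepatopancreas libraries. Of these 21, 20 were called higher in the hepatopancreas, against 26.6% of all tested. A high level in these libraries, by which the 21 were chosen, itself favours that call. All 10 gonad libraries shared 9, each of which was also in the top 100 of at least 1 hepatopancreas library. Of the 9, 1 was called higher in the gonads, 4 were called higher in the hepatopancreas and 4 were not called. All 20 libraries shared 4.

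**Figure D4:**
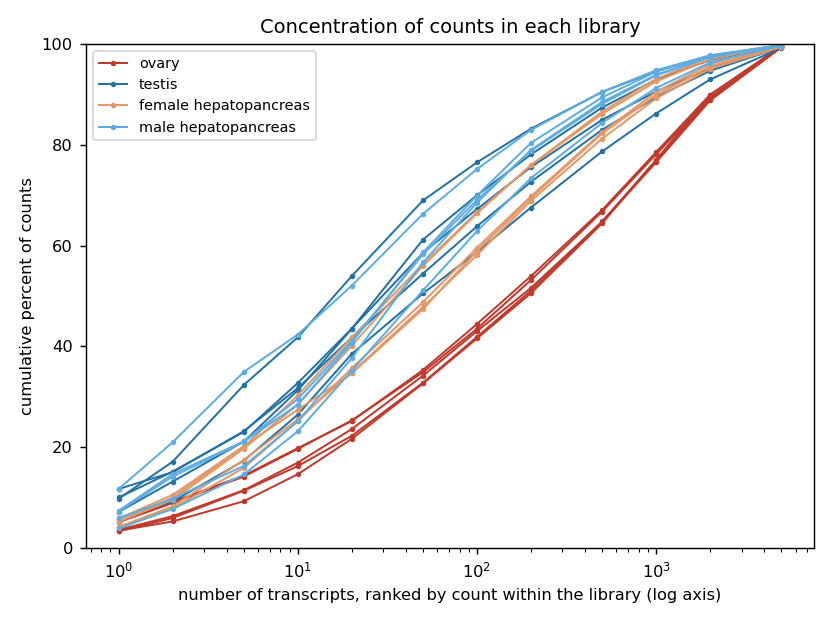
Cumulative share of the counts of each library (y axis, percent) against the rank of its transcripts by count (x axis, log scale), 1 line per library coloured by group. The 5 ovaries rise most slowly and reach 50% of their counts at 149 to 192 transcripts, while testes reach it at 17 to 48 and hepatopancreas libraries at 18 to 59.

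Measured per library, 4 properties were compared between the organs with a two-sided exact permutation test, in which tissue labels were permuted within sex (63504 arrangements) and p-values were adjusted over the 4. Gonad libraries had 6596 ± 316 transcripts at 1 CPM or more, and hepatopancreas libraries 6165 ± 396 (SD, n = 10). The gonad values ran from 6050 to 7023 with a median of 6675, and the hepatopancreas values from 5728 to 7097 with a median of 6020, so that the ranges overlapped. The difference of 431.7 had an exact permutation p of 0.0191 (adjusted 0.0255), and it was 266 in females and 597.4 in males. The adjusted p was 0.0512 without female hepatopancreas 5, where the difference was 388.3. The size of the difference also depended on the minimum: at 5 CPM or more it was 884.3 (adjusted exact permutation p = 0.00265). The permutation test of the difference between the sexes gave an adjusted p of 0.323. For all 4 measures that test is only approximate, since permuted labels remove more than the difference between the sexes. A large p from it is no sign that the sexes agree.

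The 100 most abundant transcripts of a library took 55.1% ± 13.6 of its counts in gonads and 65.5% ± 5.54 in hepatopancreas (SD, n = 10). The difference of -10.45 percentage points had an exact permutation p of 0.00271 (adjusted 0.0108). It was -19.04 points in females, with 41.6% to 44.5% in the 5 ovaries, and -1.85 points in males. The approximate permutation test of the difference between the sexes gave an adjusted p of 0.0866, which is no sign that they agree. With the 10 most abundant transcripts in place of 100, the organs differed by -3.42 points (adjusted exact permutation p = 0.214).

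The mean transcript length weighted by counts was 1590 ± 195 bases in gonads and 1764 ± 160 bases in hepatopancreas (SD, n = 10). The difference of -174.5 bases had an exact permutation p of 0.0450 before and after adjustment, and it lost the call in 13 of the 20 repeats without 1 library. It had opposite signs in the sexes: 55.5 bases in females and -404.5 bases in males. The difference between the sexes was 460 bases (adjusted p = 0.00983 by the approximate permutation test). The testes had 1298, 1457, 1358, 1368 and 1791 bases, so that testis 5 stood above the ovaries, which had 1694 to 1765 bases. The other 4 testes lay below all other libraries.

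Of the 19796 transcripts without a count in any library, 17169 had the word Male in their identifier. Few transcripts with this word had counts: 192 of the 8043 tested and 159 of the 2421 untested ones with counts. Transcripts with this word took 11.3% ± 6.06 of the counts in gonads and 7.16% ± 2.32 in hepatopancreas (SD, n = 10). The difference of 4.15 percentage points (exact permutation p = 0.0131, adjusted 0.0255) came from females, with 8.69 points, against -0.39 points in males. The sexes differed by 9.08 points (adjusted p = 0.0479 by the approximate permutation test). The ovaries lay between 15.7% and 17.7%, above every other library. Within the testes the share was 10.8% in testis 5 and 3.45% to 5.40% in the others.

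**Figure D5:**
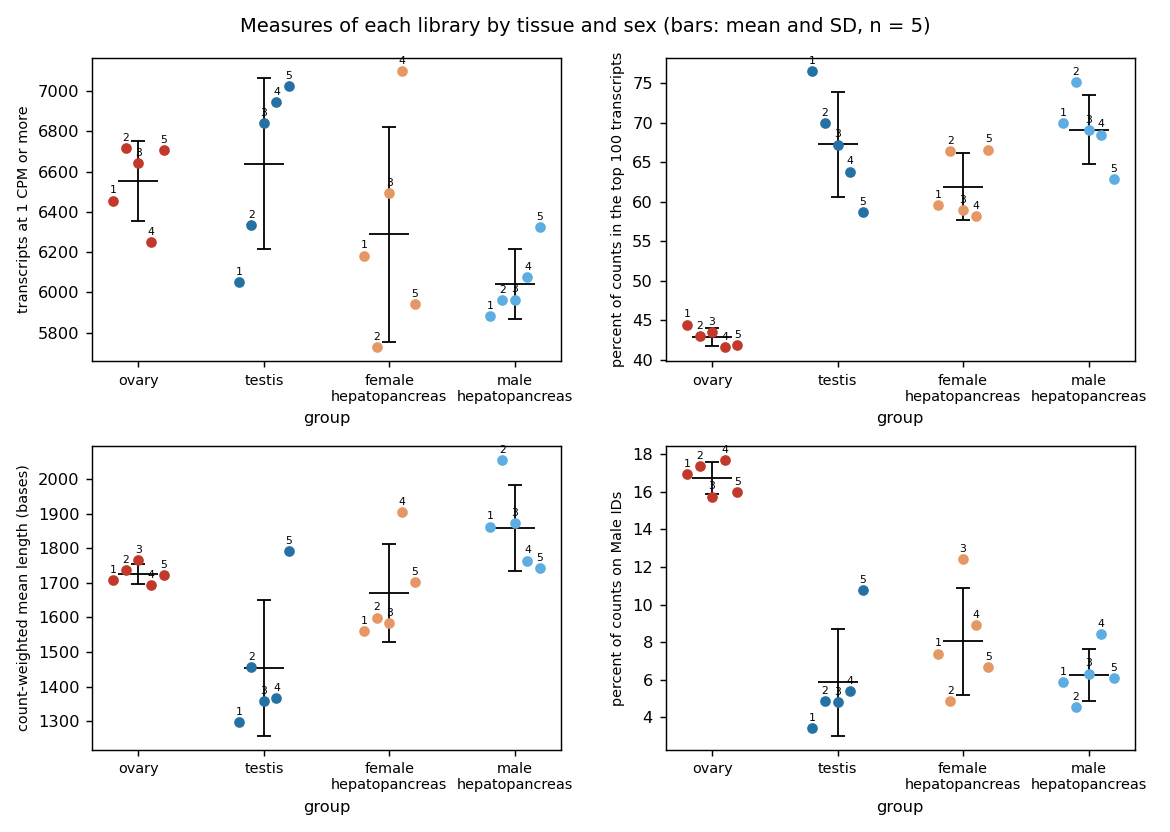
The 4 measures per library: transcripts at 1 CPM or more, percent of counts in the 100 most abundant transcripts, count-weighted mean length in bases, and percent of counts on identifiers with the word Male. Each point is 1 library and each bar the mean of its group with its SD (n = 5); the ovaries lie above every other library in the last measure, and testis 5 lies apart from the other testes in the last 2.

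Over all tested transcripts, tissue was the largest source of variation among the 4 terms of the design. It held 54.6% of the sum of squares of log2 CPM, sex 12.1%, their interaction 10.4% and the libraries within groups 22.9%. Tissue was the largest term for 3216 of the 8043 transcripts, the residual for 3177, sex for 1044 and the interaction for 606. Across transcripts, the median correlation of log2 CPM was 0.85 between female and male hepatopancreas libraries, close to the 0.82 among female and below the 0.91 among male ones. It was 0.52 between ovary and testis, 0.92 among ovaries and 0.85 among testes. Between organs it was 0.30 for ovary and female hepatopancreas, and 0.27 for testis and male hepatopancreas. These correlations describe pairs of libraries over the same 8043 transcripts, which are not independent replicates.

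The called sets were also described by length and identifier class. The median length was 1561 bases for gonad-higher and 1626 bases for hepatopancreas-higher transcripts, against 1597 bases for all tested. Of the 582 transcripts of 3000 bases or more, 126 (21.6%) were higher in the gonads and 161 (27.7%) in the hepatopancreas, against 29.0% and 26.6% of all tested. By library totals these counts were 297 and 59 of the 582, against 4429 and 1193 of all 8043 tested. The move to the gonad side was therefore not particular to long transcripts. Identifiers of the LQ class made up 0.64% of the gonad-higher and 2.95% of the hepatopancreas-higher transcripts, against 1.32% of all tested. Identifiers with the word Male made up 3.04% and 1.73%, against 2.39% of all tested. These shares were not tested.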

How the data were processed

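RNA from ovary, testis and hepatopancreas was prepared for sequencing with a directional kit, per the labels' protocols. The authors deposited 1 table of estimated counts per transcript, with no normalisation. The tools Bowtie 0.12.2 and DESeq 1.10.1 are listed, per the submitters' processing notes, with no role given. How reads were counted, and on which transcripts, is not given in the sources. Of the identifiers, 0 matched a RefSeq table of 31758 genes (assembly ASM4041242v1), so the lists of marker genes were not tested.

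After rounding to whole numbers, the deposited estimated counts were analysed with edgeR 4.0.16 in R 4.3.3 (quasi-likelihood F test, library sizes over all transcripts, TMM factors, Benjamini-Hochberg adjustment over all tested transcripts, threshold 0.05). Transcripts with 10 or more counts in at least 5 of 20 libraries were kept. The comparison over both sexes had tissue and sex as terms. The within-sex fits used the 10 libraries of that sex, and the interaction all 20. Standard errors are the size of the log2 change over the root of its F value. CPM are TMM-scaled, and log2 CPM used a prior count of 2. Folds of summed counts have 95% Poisson intervals. For a group with no count, the fold is replaced by a bound, taken against 3 counts in the whole group. Intervals and bounds cover counting error only. The procedures were tested on simulated data of 7879 transcripts, in which 200 had a known tissue change. The tissue test recovered 25.4% of the 2-fold, 67.2% of the 4-fold and 83.3% of the 8-fold changes. Of its calls, 4.1% were false. With so few changes, balanced between up and down, the simulation does not test the scaling of the real libraries.

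Because identifiers have no gene names, at most 2 transcripts per direction were named: among called transcripts without overlap between the organs, the one whose smaller within-sex change was largest (prior 0.5 CPM) and the one of highest mean CPM in its organ. For each of the opposite patterns, the transcript whose smaller within-sex change was largest was named. The comparison, the lists and the rules were chosen with earlier results of these data known.

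In males, libraries of the same replicate number deviated together from their group means in all 5 pairs (correlation across transcripts 0.15 to 0.27), a pairing seen in the data and not stated by the labels. In females this held for 4 of 5 pairs, so the numbers were not treated as pairs over both sexes. Alternatives were DESeq2 1.42.0, its size factors, library totals, no filter, filters of 50 counts and of 4 libraries, the replicate number as a block, other sex terms, weight gain as a covariate, a test against 2-fold, other minimums for the library measures, and leaving out libraries. The filter of 4 libraries and TMM factors of all 20 libraries within the sexes were chosen after seeing the data.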

Additional observations from a re-analysis of the deposited data

Results flagged for a closer look

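The tissue difference differed between the sexes, by a test of the difference, for 3013 transcripts and for 2 measures of whole libraries. For the measures this test was approximate. In mean length, the female difference between gonad and hepatopancreas exceeded the male one by 460 bases. In the share of counts on identifiers with the word Male it exceeded it by 9.08 percentage points. For transcript_HQ_Male_transcript27571/f2p0/948 the fitted interaction, male minus female tissue difference, was -24.58 on the log2 scale (edgeR adjusted p = 3.8e-05). For transcript_HQ_Female_transcript8354/f20p0/1558 it was 24.03 (edgeR adjusted p = 0.00340). Both have groups without counts, so that these fitted values depend on the prior count and are not bounds.

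Single libraries lay far from the others of their group of 5 in 6 of 40 groups examined. A chance rate of about 1 in 20 groups does not apply, since the groups include those of transcripts named for extreme values. Where all others of a group had no count, as few as 1 count stood out. Testis 5 had 10.8% of its counts on identifiers with the word Male, above the other testes. For transcript_HQ_Female_transcript8354/f20p0/1558, testis 5 had 254 CPM, female hepatopancreas 4 had 619 CPM and ovary 2 had 0.22 CPM, each the highest of its group. Testis 2 had 1.62 CPM of transcript_HQ_Female_transcript19344/f3p0/967, and the other testes had none. Female hepatopancreas 5 had 0.12 CPM of transcript_HQ_Male_transcript729/f2p0/2665, and the others of its group had none.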

How the results depend on the processing

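Of 631 repeats of the reported results under alternative settings, 596 kept their direction and their side of the threshold or stayed within 1.5 times the count, and 35 did not. The scaling mattered most. By library totals the gonad-higher transcripts became 4429, the hepatopancreas-higher 1193, the gonad-higher within both sexes 2310, the ovary-higher and testis-lower 56 and the reverse 113. The test against 2-fold called 2745, of which 1232 were higher in the gonads. Without the 3 libraries that stood apart, the gonad-higher transcripts within both sexes numbered 567. With the 10 most abundant transcripts the difference in their share was -3.42 points. DESeq2 called 4857 transcripts, of which 4398 were also called by edgeR.

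Leaving out 1 library at a time, the transcripts called between the organs ran from 4208 to 4488 and those with a called interaction from 2617 to 3270. The gonad-higher transcripts within both sexes ran from 480 to 908, and the ovary-higher and testis-lower ones from 68 to 145. The difference in detected transcripts ran from 361.7 to 532.8 and that in mean length from -216.6 to -145.2 bases. The female log2 change of transcript_HQ_Female_transcript8354/f20p0/1558 reversed from -11.31 to 2.88 without female hepatopancreas 4, and was -14.11 (edgeR adjusted p = 0.0750) without ovary 2. The causes were not tested.

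The replicate number was checked as a block. Same-numbered libraries correlated in their deviations from the group means by -0.08 to 0.38 in females and 0.15 to 0.27 in males. Every male library matched its own number best, which is a hint from the data and not the design, and 3 of 5 ovaries did so in females. Ovary 2 matched female hepatopancreas 4 best and ovary 4 matched female hepatopancreas 2 best, so the female numbers may not mark pairs, and nothing was crossed. With the replicate block, 4219 transcripts were called between the organs, 4013 of them shared with the fit without it, and 2709 had a called interaction. Ovary-lower and testis-higher transcripts fell to 210. The call of transcript_HQ_Female_transcript16596/f2p0/1042 and the female call of transcript_HQ_Female_transcript8354/f20p0/1558 were lost.

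Library totals of 8670640 counts or more limit low transcripts. Thinning all libraries to 8670640 counts left the difference in detected transcripts at 432.6.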
